A study of Rattus norvegicus with 24 samples.

Results

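The BCL2 family genes Bcl2, Bcl2l1, Mcl1, Bak1, Bid, Bcl2l11, Bbc3, Bad and Bmf and the death receptor gene Fas were followed in liver and spleen of rats given cyclophosphamide or vehicle. They were chosen by gene symbol, as 10 of the 14201 genes that a probe set of the array names alone. A probe set is the group of short oligonucleotides that measures 1 transcript, and 18 probe sets name 1 of the 10 genes. Of these, 5 genes have several probe sets and 5 have 1, and the brightest on average over all arrays stood for its gene.

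The animals were male wild type Sprague-Dawley rats, 46 to 49 days old. There were 4 groups of 3 rats: cyclophosphamide with wood sticks in the cage, cyclophosphamide without, vehicle with wood sticks and vehicle without. The oral dose was 40 mg/kg on each of 5 days, and the vehicle is not named in the labels. Liver and spleen of each rat were hybridised to an Affymetrix rat array, giving 24 arrays from 12 rats. The design asks what the drug did in each organ and whether access to wood altered it. Cyclophosphamide is a prodrug that the liver converts to DNA alkylating products, and it is known for depleting lymphocytes and other dividing cells.

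BCL2 family proteins decide whether the outer membrane of mitochondria is opened, which releases cytochrome c and starts the caspases. Pro-survival members (BCL2, BCL-XL, MCL1) hold the effectors BAX and BAK in check, and BH3-only proteins (BIM, BID, BAD, PUMA, BMF) bind the pro-survival members or engage the effectors. FAS is a surface receptor that recruits FADD and caspase 8, and BID links that route to mitochondria. Lymphocytes depend on the balance of these proteins for survival, and hepatocytes are known for their sensitivity to FAS and their need for BCL-XL and MCL1.

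Promoter sequences are shown for 2 pro-survival genes that fell in spleen (Mcl1 and Bcl2l1) and for a BH3-only gene and the receptor gene that rose there (Bad and Fas). The windows hold the 250 bases before an annotated start listed for the gene, on its strand, from RefSeq on build GRCr8. The windows of Mcl1 (chr2:185907918-185908167), Bad (chr1:213562864-213563113) and Fas (chr1:241211905-241212154) lie on the plus strand. That of Bcl2l1 (chr3:161764776-161765025), the outermost of its 4 windows, lies on the minus strand. On that build the Mcl1 and Bad windows lie inside the gene's span, which begins at 185884840 and 213562719. The Bcl2l1 window overlaps the gene's span, which ends at 161764844. Of the windows shown, only that of Fas lies wholly outside the gene's span, which begins at 241212155. Capitals mark a GC box, GGGCGG read on either strand.
Mcl1: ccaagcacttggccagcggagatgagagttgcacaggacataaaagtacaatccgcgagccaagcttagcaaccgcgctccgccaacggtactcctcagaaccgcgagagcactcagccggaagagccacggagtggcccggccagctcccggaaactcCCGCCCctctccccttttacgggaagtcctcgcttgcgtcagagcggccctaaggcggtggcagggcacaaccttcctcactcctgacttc
Bcl2l1: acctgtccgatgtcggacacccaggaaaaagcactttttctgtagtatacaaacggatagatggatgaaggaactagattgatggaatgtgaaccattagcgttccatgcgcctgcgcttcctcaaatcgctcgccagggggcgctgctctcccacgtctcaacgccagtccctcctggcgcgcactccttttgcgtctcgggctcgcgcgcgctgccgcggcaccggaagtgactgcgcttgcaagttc
Bad: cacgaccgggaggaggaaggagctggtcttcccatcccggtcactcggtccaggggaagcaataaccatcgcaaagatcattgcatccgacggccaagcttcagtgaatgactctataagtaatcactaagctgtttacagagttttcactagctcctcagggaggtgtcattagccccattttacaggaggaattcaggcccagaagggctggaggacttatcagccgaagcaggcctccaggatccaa
Fas: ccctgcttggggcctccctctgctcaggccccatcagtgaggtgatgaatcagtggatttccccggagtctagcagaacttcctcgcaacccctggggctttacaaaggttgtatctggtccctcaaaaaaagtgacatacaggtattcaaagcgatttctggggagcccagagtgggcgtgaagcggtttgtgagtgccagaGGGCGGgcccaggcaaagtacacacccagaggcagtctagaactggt

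A window was found for 9 of the 10 members, 12 windows in all, of which 4 belong to Bcl2l1. The member without a window was Bbc3, so no motif was searched for it. The GC box, the motif of SP1-type factors, stood in the windows of Mcl1, Fas, Bid, Bcl2l11, Bak1 and Bmf, and in 30.5% of all 33469 windows of that length. The TATA box TATAAA stood in the window of Bcl2 and in 12.9% of all windows. The GATA motif AGATAA (10.3% of all windows), the E-box CACGTG (5.59%) and the p53 decamer, searched by its consensus (6.64%), stood in none of the 12 windows. All motifs were searched on both strands and none of the matches overlap. These are matches of letters, not measured binding.

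Signal was read as intensity, and changes are given on the log2 scale as cyclophosphamide minus vehicle, the mean of the effects with and without wood unless stated, with the standard error (SE) of the limma fit. A gene was called where its p-value, adjusted by Benjamini-Hochberg over all genes tested in that comparison, was below 0.05. Blank cells, which the authors left empty, made up 10.5% of the values, with 4924 to 6060 per liver array and 1021 to 1920 per spleen array. In spleen, 4 arrays had over 1500 blanks, all 3 of vehicle rats without wood and 1 of a cyclophosphamide rat without wood, so the comparison with wood lies wholly among the other arrays. The liver of rat 2003, given the drug without wood, had the most blanks and the lowest mean correlation with the other livers, 0.8765. The organ labels held: the 8 hepatocyte markers summed to 66345 to 75879 in livers of cyclophosphamide rats and 67825 to 74267 in those of vehicle rats, against at most 838 in any spleen, where Tat was blank throughout. Pancreas markers, which can enter a dissected spleen, summed to 15696 in 1 spleen of the drug group without wood, against at most 1012 in the other groups.

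In the spleen, 6 of the 10 genes passed the test for the drug. The pro-survival genes Bcl2l1 and Mcl1 and the BH3-only gene Bid fell, while the BH3-only genes Bad and Bbc3 and the receptor gene Fas rose. Bcl2, Bak1, Bcl2l11 and Bmf were not called. The 3 members that rose stand beside 3660 of 13614 genes tested (26.9%), and the 3 that fell beside 3825 (28.1%), so the share called is near that of the array as a whole. The median change of the 10 members was -0.05, and that of all genes was -0.02. At an unadjusted p below 0.05, 7 members were counted, the additional gene being Bcl2l11, beside 60% of all genes.

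**Figure D1:**
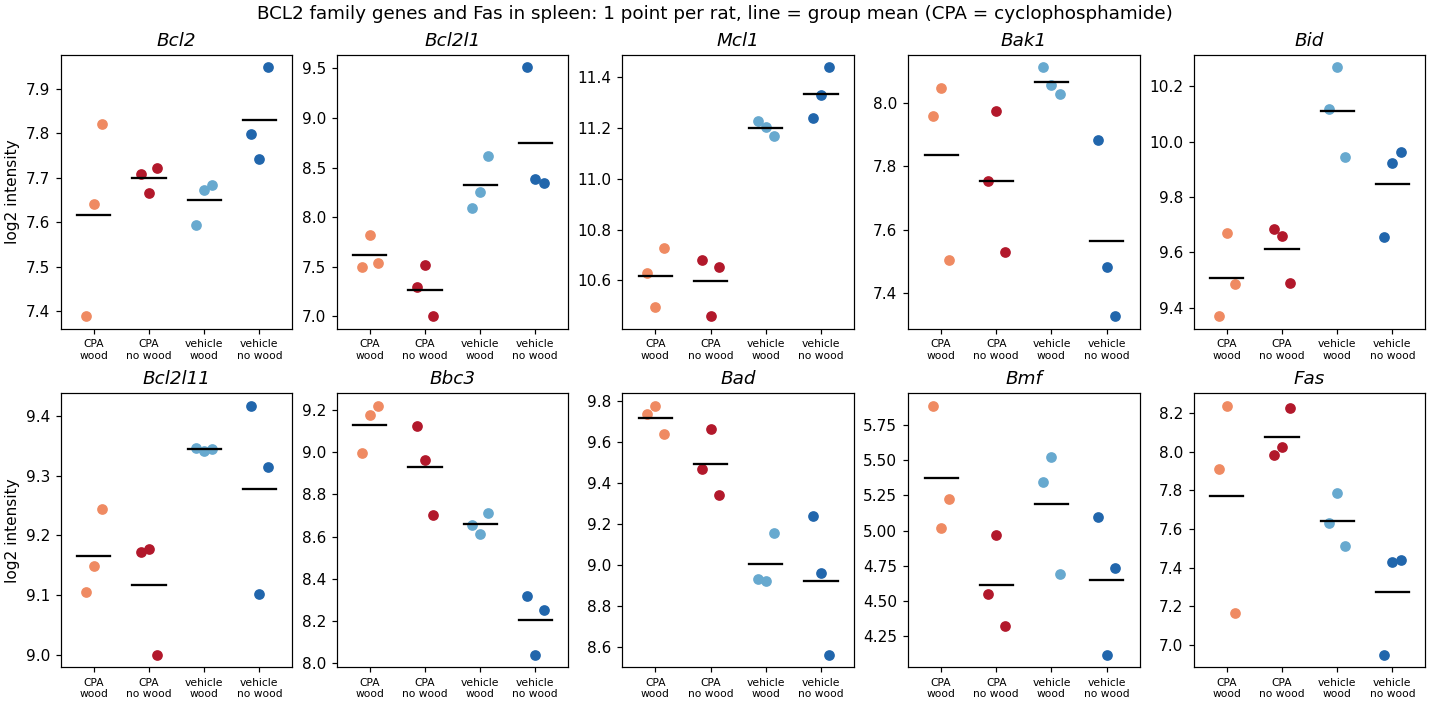
Log2 intensity of the 10 genes in spleen, with 1 point per rat and a line at each group's mean, in 4 groups of 3 rats (CPA is cyclophosphamide). The 6 cyclophosphamide spleens lie wholly below the 6 vehicle spleens for Bcl2l1 and Mcl1 and wholly above them for Bad; each panel has its own scale.

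Mcl1 encodes a short-lived pro-survival protein that lymphocytes and stem cells need. Its intensity in spleens of cyclophosphamide rats was 1584, 1443 and 1693 with wood and 1642, 1407 and 1611 without wood. In spleens of vehicle rats it was 2397, 2356 and 2304 with wood and 2414, 2574 and 2775 without wood. The highest cyclophosphamide spleen lay below the lowest vehicle spleen, and the spread within each group was small. On the log2 scale Mcl1 averaged 10.61 ± 0.11 in cyclophosphamide rats and 11.27 ± 0.10 in vehicle rats (SD, n = 6 each), a change of -0.66 ± 0.07 (SE) with an adjusted p of 2.25e-05 in limma. It fell with wood (-0.58 ± 0.09, adjusted p = 0.000898) and without wood (-0.74 ± 0.09, adjusted p = 0.000218). Of the 13614 genes, 1597 had a lower change than Mcl1.

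Bcl2l1 encodes BCL-XL, the pro-survival protein on which late red cell precursors and platelets depend, and by splicing also a short form that promotes death. Its intensity in cyclophosphamide spleens was 180.4, 225 and 186 with wood and 157, 183 and 128 without wood. In vehicle spleens it was 274, 306 and 393 with wood and 729, 334 and 324 without wood. The groups did not overlap, and 1 vehicle spleen without wood, at 729, stood far above the other vehicle spleens; without that rat the change was -0.90. The change was -1.09 ± 0.21 (SE, adjusted p = 0.00139 in limma), and 690 of 13614 genes had a lower change. Only the effect without wood passed in the fit of all 12 spleens (-1.47 ± 0.29, adjusted p = 0.00278), against -0.71 ± 0.29 with wood (adjusted p = 0.0836). The difference of these effects was 0.77 ± 0.41 (adjusted p = 0.458). In the 8 spleens with fewer blanks, a setting added after the data were seen, the effect with wood was -0.71 ± 0.16 with an adjusted p of 0.0123.

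Bcl2, the founding pro-survival gene, was not called. Its intensity ranged from 168 to 226 (median 206) in cyclophosphamide spleens and from 193 to 247 (median 209.9) in vehicle spleens, and the groups overlapped. The estimate was -0.08 ± 0.08, with a 95% interval of -0.25 to 0.09 and an adjusted p of 0.39 in limma.

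Bbc3 encodes PUMA, a BH3-only protein that p53 induces after DNA damage. Its intensity in cyclophosphamide spleens was 511, 578 and 597 with wood and 559, 499.5 and 417 without wood. In vehicle spleens it was 403, 392 and 419 with wood and 319, 263 and 304 without wood. The groups overlapped at their edge, with the lowest cyclophosphamide spleen just under the highest vehicle spleen. The change was 0.60 ± 0.09 (SE, adjusted p = 0.000227 in limma), and it passed with wood (0.47 ± 0.12, adjusted p = 0.0119) and without (0.73 ± 0.12, adjusted p = 0.00105).

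Bad encodes a BH3-only protein that survival signals hold inactive by phosphorylation. Its intensity in cyclophosphamide spleens was 853, 877 and 798 with wood and 709, 812 and 648 without wood. In vehicle spleens it was 489, 485 and 569.8 with wood and 604, 499 and 378 without wood. All cyclophosphamide spleens lay above all vehicle spleens. Bad rose by 0.64 ± 0.11 (SE, adjusted p = 0.000873 in limma), with 0.71 ± 0.16 with wood (adjusted p = 0.00581) and 0.57 ± 0.16 without (adjusted p = 0.0157). With a term for the 4 spleens of over 1500 blanks (the blank term), the effect without wood was 0.42 ± 0.22 (adjusted p = 0.199). That term is set only within the drug group without wood, by the spleen of rat 2005 against those of rats 2001 and 2003. The effect without wood under the blank term thus compares rat 2005 with the vehicle spleens without wood. With the 2 groups fitted alone or without rat 2003, the adjusted p of Bad without wood was 0.0731 and 0.0604.

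Bid encodes the protein that caspase 8 cuts to carry a death receptor signal to mitochondria. Its intensity in cyclophosphamide spleens was 662, 815 and 718 with wood and 823, 809 and 718 without wood. In vehicle spleens it was 1112, 1233 and 984 with wood and 806, 971 and 999 without wood. The groups overlapped through the lowest vehicle spleen, at 806, which lay below 3 of the cyclophosphamide spleens. Bid changed by -0.42 ± 0.09 (SE, adjusted p = 0.00258 in limma). The effect with wood was called (-0.60 ± 0.12, adjusted p = 0.00383), and that without wood was -0.24 ± 0.12 (adjusted p = 0.147), a difference of -0.36 ± 0.18 (adjusted p = 0.41).

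Fas, the death receptor, passed close to the threshold. Its intensity in cyclophosphamide spleens was 241, 302 and 144 with wood and 253, 260.2 and 299.8 without wood. In vehicle spleens it was 198, 221 and 182 with wood and 124, 172 and 174 without wood. The spleen of a cyclophosphamide rat with wood, at 144, lay below 5 of the 6 vehicle spleens, and the other 5 cyclophosphamide spleens lay above them all. Fas rose by 0.47 ± 0.17 (SE, adjusted p = 0.0425 in limma), with 0.13 ± 0.24 with wood (adjusted p = 0.732) and 0.81 ± 0.24 without (adjusted p = 0.0224). The effect without wood missed the threshold without rat 1001 (adjusted p = 0.0787) or rat 2005 (adjusted p = 0.0536) and with the blank term (adjusted p = 0.075), and with the probe sets of the gene averaged it was 0.96 (adjusted p = 0.107). When each rat was left out in turn, Fas passed in 2 of 12 fits, with adjusted p from 0.00227, without the low spleen of rat 4005, to 0.0941. With the blank term the adjusted p was 0.0666, and in the 8 spleens with fewer blanks the effect with wood was 0.13 (adjusted p = 0.722).

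The effector gene Bak1 and the BH3-only genes Bcl2l11 and Bmf did not pass. Bak1, whose protein forms the membrane pore, was at -0.02 ± 0.13 (adjusted p = 0.905 in limma), with a 95% interval of -0.31 to 0.27, and its sign turned under quantile scaling, under median centring and with array weights. Bcl2l11, which encodes BIM and governs the death of lymphocytes, ranged from 512 to 606 (median 572) in cyclophosphamide spleens and from 549.7 to 684 (median 649.6) in vehicle spleens, an estimate of -0.17 ± 0.07 (adjusted p = 0.0541). It passed in 4 of 12 other settings, among them the blank term (-0.23, adjusted p = 0.0353). It also passed without rat 1003 (adjusted p = 0.0165). With the probe sets of Bcl2l11 averaged, the estimate was -0.05 ± 0.12 (adjusted p = 0.773). Its other probe sets, 1370787_at and 1387338_s_at, averaged 6.61 and 3.88 (log2) in cyclophosphamide spleens, against 6.58 and 3.89 in vehicle spleens. Bmf, a BH3-only gene tied in other work to loss of attachment, was dim, at 20 to 59.2 (median 31.9) in cyclophosphamide spleens and 17.4 to 46 (median 30.4) in vehicle spleens, and its estimate was 0.08 ± 0.23 (adjusted p = 0.793).

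Counted by overlap alone, 2 members lay wholly below and 1 wholly above the vehicle spleens, 3 of 10, beside 31.2% of the 12837 genes measured on all spleen arrays. The difference of log2 Bbc3 and log2 Mcl1 within an array is not altered by a single scaling factor per array, such as median centring, though quantile scaling can alter it. It ran from -1.95 to -1.32 (median -1.53) in cyclophosphamide spleens and from -3.29 to -2.46 (median -2.75) in vehicle spleens, without overlap. Bbc3 was called higher and Mcl1 lower in spleen, so this shift follows from those calls and adds no support to them. In livers the difference ran from -2.64 to -1.49 (median -1.87) in cyclophosphamide rats and from -2.32 to -1.60 (median -1.85) in vehicle rats, with overlap. The value sets no level of Bbc3 against that of Mcl1, since probe sets differ in brightness, and shows only that the genes changed unequally.

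Markers of several cell types moved with the drug in spleen. The counts called stand beside the 26.9% of all genes that rose and the 28.1% that fell. All 6 B cell markers tested fell, and their summed intensity was 1642 to 2726 in cyclophosphamide rats, against 15931 to 21066 in vehicle rats. All 7 erythroid markers tested fell (1006 to 1343 in cyclophosphamide rats, against 10883 to 21862 in vehicle rats), as did all 9 mitosis genes (1102 to 2389 in cyclophosphamide rats, against 3549 to 7256 in vehicle rats). Of the macrophage markers 8 of 9 rose (34569 to 38834 in cyclophosphamide rats, against 17120.0 to 21078 in vehicle rats), with 7 of 8 stroma markers (11268 to 13634 in cyclophosphamide rats, against 4510.1 to 5959 in vehicle rats) and 6 of 6 endothelial markers (8171 to 10292 in cyclophosphamide rats, against 4578 to 6106 in vehicle rats). Of 9 T cell markers, 2 rose and 2 fell (6268 to 9779 in cyclophosphamide rats, against 8214 to 9899.9 in vehicle rats), of 4 plasma cell markers 2 fell (5469 to 7152 in cyclophosphamide rats, against 10117 to 12062 in vehicle rats), and of 6 granulocyte markers 1 rose and 5 fell (398 to 2217 in cyclophosphamide rats, against 3012 to 14482 in vehicle rats). Fewer cells of a type and less RNA per cell cannot be told apart in whole organs, and the part of these shifts in the changes of the 10 genes was not tested.

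With wood, 4 members were called (Mcl1, Bid, Bad and Bbc3), beside 38.4% of genes. Without wood, 5 members were called (Bcl2l1, Mcl1, Bad, Bbc3 and Fas), beside 45.1% of genes, and with the blank term 3 were called (Bcl2l1, Mcl1 and Bbc3). The test of the difference itself, the interaction of drug and wood, called no member in limma, beside 0.705% of genes, and none had an unadjusted p below 0.05, beside 13% of genes. For wood against no wood, averaged over drug and vehicle rats, 1 member was called, Bbc3, beside 12.1% of genes, and 3 members, with Bak1 and Bmf, had an unadjusted p below 0.05, beside 32.5% of genes. Bbc3 was higher with wood by 0.33 ± 0.09 (adjusted p = 0.0384), with 0.20 ± 0.12 in cyclophosphamide rats (adjusted p = 0.651) and 0.46 ± 0.12 in vehicle rats (adjusted p = 0.034). All 3 vehicle spleens without wood were among those with over 1500 blanks. With the blank term, which rests on the spleen of rat 2005, the wood effect on Bbc3 was 0.10 (adjusted p = 0.881). The call was kept in 3 of 12 fits that each left out a rat, those without rats 1001, 2001 and 4001, and the adjusted p reached 0.0857 without rat 4005.

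In the liver no member passed the test for the drug in limma, beside 21 of 12683 genes higher (0.166%) and 82 lower (0.647%), and 1 member, Fas, had an unadjusted p below 0.05, beside 14.3% of genes. Livers of cyclophosphamide rats read 119, 240.0 and 140.1 with wood and 89.7, 70.3 and 198 without wood for Fas. Livers of vehicle rats read 101, 107 and 93.1 with wood and 44.2, 53.3 and 96.3 without wood. The groups overlapped, with the vehicle livers without wood including the lowest values. The estimate for Fas was 0.74 ± 0.30 (unadjusted p = 0.0339, adjusted p = 0.309). The median change of the members was -0.01, and that of all genes -0.02.

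**Figure D2:**
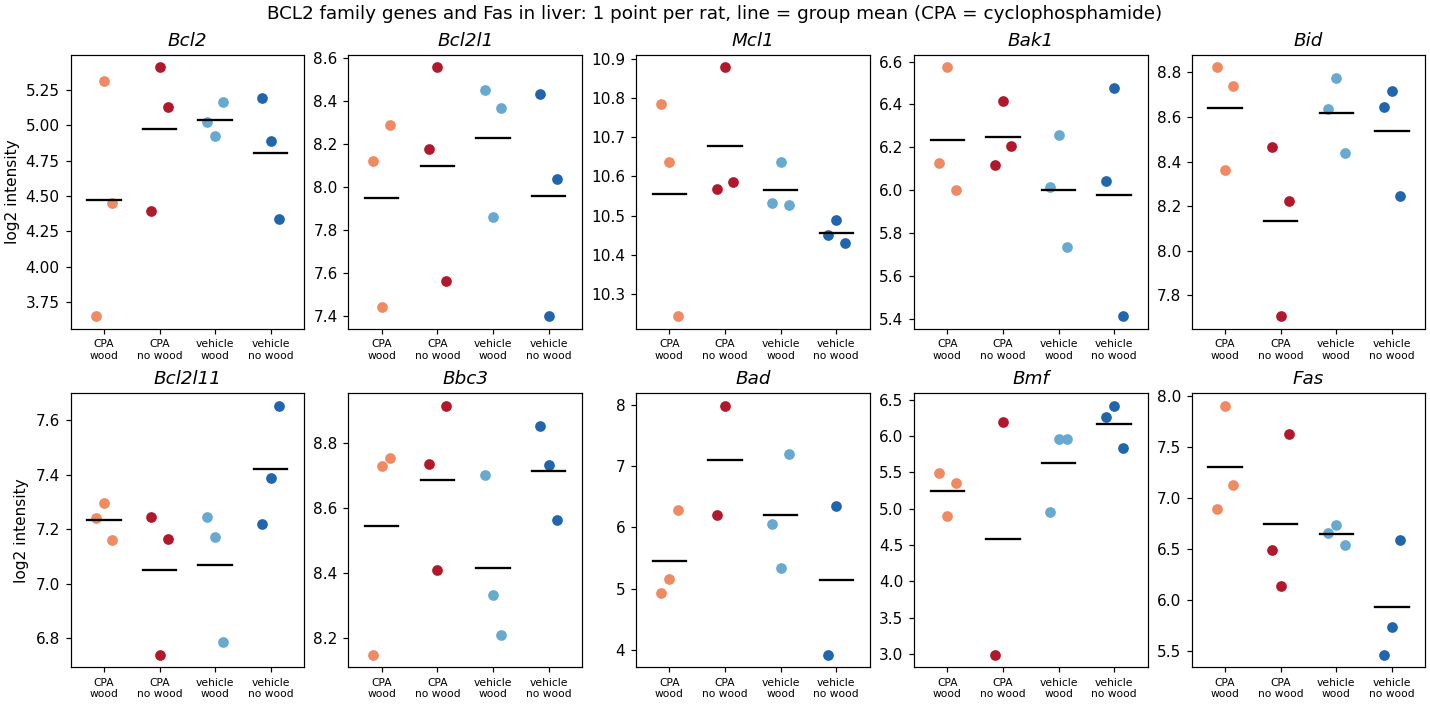
Log2 intensity of the 10 genes in liver, drawn as for spleen, with blank cells left out (Bad in 2 livers, Bmf in 1). The groups overlap for all 8 genes that have a value on every liver array. Each panel has its own scale, and Bad, Bmf, Bcl2 and Bak1 are dim here.

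Mcl1, which the adult liver needs for hepatocyte survival, ranged from 1213 to 1881 (median 1564) in livers of cyclophosphamide rats and from 1381 to 1593 (median 1456) in those of vehicle rats, an estimate of 0.11 ± 0.10 with a 95% interval of -0.13 to 0.34. Bcl2l1 ranged from 174 to 376 (median 283) in cyclophosphamide livers and from 169 to 349.7 (median 296) in vehicle livers, an estimate of -0.07 ± 0.25 with an interval of -0.62 to 0.48. Bbc3 ranged from 284 to 483 (median 425) in cyclophosphamide livers and from 296 to 462 (median 397) in vehicle livers, an estimate of 0.05 ± 0.15 with an interval of -0.28 to 0.38. For these genes the spleen's change lies outside the liver's interval.

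Dim genes were measured poorly in the liver. Bad had values of 15.3 to 252 where it was not blank, and its estimate of 0.60 ± 0.64, fitted without the blank livers of rats 2005 (drug) and 1001 (vehicle), has an interval of -0.88 to 2.09. Bmf, fitted without the blank liver of rat 2003, was at -0.98 ± 0.52 (adjusted p = 0.447), and it passed only in the fit without rat 2005 (adjusted p = 0.0399). Bcl2 was at -0.20 ± 0.29, Bak1 at 0.25 ± 0.19, Bid at -0.19 ± 0.15 and Bcl2l11 at -0.10 ± 0.13, with adjusted p between 0.588 and 0.799. In the liver 0 members were called with wood, beside 0.0473% of genes, and 0 without wood, beside 0.15%. The wood effect and the interaction called 0 members, beside 0% of genes each. In these comparisons no member had an unadjusted p below 0.05, beside 8.12% of genes with wood, 11.9% without wood, 6.16% for wood and 5.12% for the interaction. No member had livers of the drug groups wholly above or below those of the vehicle groups, beside 2.89% of 10799 genes. Of the liver's cell markers, 4 of 9 macrophage markers were lower with the drug (with the list summing to 3038 to 4874 in cyclophosphamide rats, against 5899 to 7429.6 in vehicle rats), and so were 1 of 6 erythroid markers, Alas2 (with the list summing to 965 to 1491 in cyclophosphamide rats, against 1551 to 2746 in vehicle rats), and 1 of 4 plasma cell markers, Jchain (with the list summing to 3762 to 5584 in cyclophosphamide rats, against 4188 to 5963 in vehicle rats). These markers stand beside the 0.647% of all genes called lower in liver. None of the hepatocyte, B cell, T cell, granulocyte, endothelial, stroma, mitosis and pancreas markers tested passed. Of these, 9 of 50 had an unadjusted p below 0.05, beside 14.3% of all genes. Cd3d and Cd8a, which mark T cells, Epb42 of the erythroid list and Postn of the stroma list were blank on every liver array. The part of cell marker shifts in the liver values of the 10 genes was not tested.

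**Figure D3:**
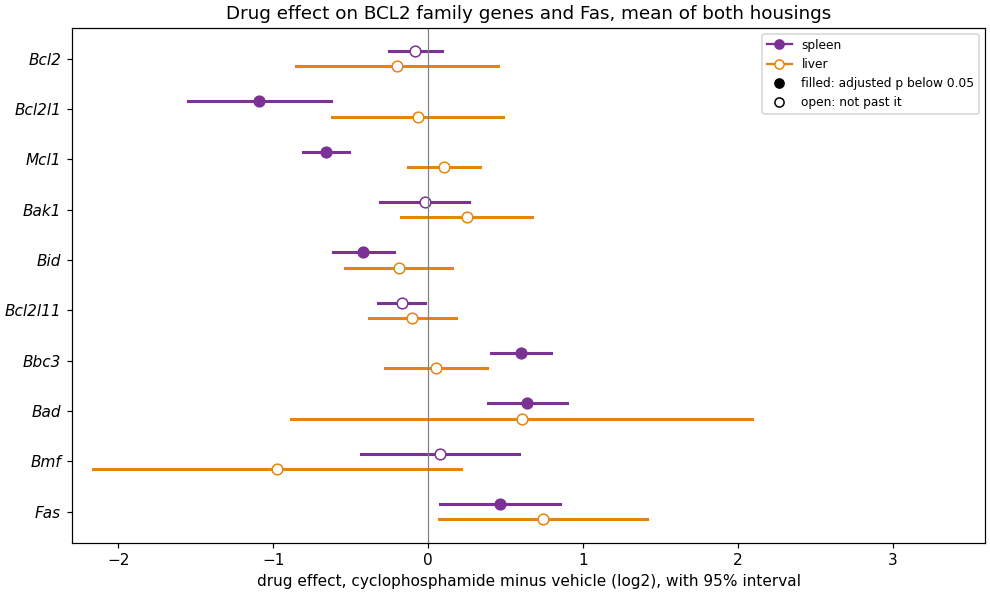
Drug effect, cyclophosphamide minus vehicle on the log2 scale, for each gene in spleen (purple, above) and liver (orange, below), with the 95% interval of the limma fit over 12 arrays per organ. Filled points are called; Mcl1, Bcl2l1, Bid, Bbc3, Bad and Fas are called in spleen, and no gene is called in liver.

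The organs were compared in a fit of all 24 arrays. The drug effect differed between spleen and liver for 3 members, beside 33.1% of 12474 genes. It was lower in spleen for Bcl2l1, at -1.02 ± 0.33 (adjusted p = 0.0241 in limma) and for Mcl1, at -0.77 ± 0.12 (adjusted p = 9.1e-05). It was higher in spleen for Bbc3 by 0.55 ± 0.17 (adjusted p = 0.0198). Mcl1 passed in all 12 fits that each left out a rat, Bbc3 in 9 and Bcl2l1 in 7. Without rat 1003, 2003 or 3001 the adjusted p for Bbc3 was 0.0524 to 0.0566, and without rat 2001, 3003, 3005, 4001 or 4005 that for Bcl2l1 was 0.0509 to 0.0662. For Bid (-0.23 ± 0.18), Bad (0.04 ± 0.60) and Fas (-0.27 ± 0.36), which were called in spleen, the difference from liver was not called. For Bmf it was called only without rat 2005 (1.92, adjusted p = 0.0012). The interval of that difference for Bad, -1.24 to 1.32, covers a large change either way.

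In vehicle rats, 7 members stood higher in spleen than in liver and 1 lower, beside 79.5% of genes called and a median difference over all genes of 0.72. Bad was higher in spleen by 3.29 ± 0.43, Bcl2 by 2.82 ± 0.22, Bcl2l11 by 2.07 ± 0.10 and Bak1 by 1.83 ± 0.17. The differences of Bid (1.40 ± 0.13), Fas (1.17 ± 0.25) and Mcl1 (0.76 ± 0.08) were smaller, and Bmf was lower in spleen, at -0.98 ± 0.39 (adjusted p = 0.03 in limma), a call lost without rat 1003, 3003 or 3005 (adjusted p of 0.0624 to 0.131). Bcl2l1 (0.44 ± 0.23) and Bbc3 (-0.13 ± 0.12) were not called. After each array's median was subtracted, Mcl1 was at 0.17 (adjusted p = 0.0856), Bcl2l1 at -0.15 and Bbc3 at -0.73, the last of which was then called. Whether spleen or liver stood higher, or whether the difference was called, thus depended on scaling for Mcl1, Bcl2l1 and Bbc3.

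Several genes gave different values by probe set, tested among all probe sets of the array. For Mcl1 the second probe set, 1370141_at, also fell in spleen, with -0.33 ± 0.09 (adjusted p = 0.0113 in limma). For Bcl2l1, probe set 1369180_at was at -0.08 ± 0.17 (adjusted p = 0.718) and 1370485_a_at at -0.68 ± 0.27 (adjusted p = 0.0583), against -1.09 ± 0.21 for the probe set used, so the fall of Bcl2l1 rests on the brightest probe set. The others were dim in spleen, with intensities of 43.9 to 92.7 for 1369180_at and 8.6 to 38.7 for 1370485_a_at. The probe set used read 128 to 729 there. Which transcripts each probe set detects was not analysed here. For Bid, 1369683_at was at -0.21 ± 0.12 (adjusted p = 0.191). For Fas, 1397221_s_at rose by 1.55 ± 0.49 (adjusted p = 0.0265) and 1369900_at was at 0.64 ± 0.33 (adjusted p = 0.137), while the probe set used had an adjusted p of 0.0513 over this larger set of tests. For Bcl2l11 in vehicle rats, 1370787_at was lower in spleen than in liver, at -1.56 ± 0.27, whereas the probe set used was higher in spleen, at 2.07 ± 0.10. When the probe sets of a gene were averaged, the drug effect in spleen was -0.62 ± 0.12 for Bcl2l1 (adjusted p = 0.00147) and 0.89 ± 0.31 for Fas (adjusted p = 0.0373), and the level of Fas in vehicle rats no longer differed by organ at the threshold (adjusted p = 0.99). That average leaves out blank cells. The dim Fas probe set 1369900_at was blank in all vehicle livers and averaged 3.74 (log2) in vehicle spleens, so it lowers only the spleen average. Fas probe sets 1384842_s_at and 1397221_s_at averaged 7.46 and 4.61 in vehicle spleens, against 6.29 and 4.24 in vehicle livers.

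**Figure D4:**
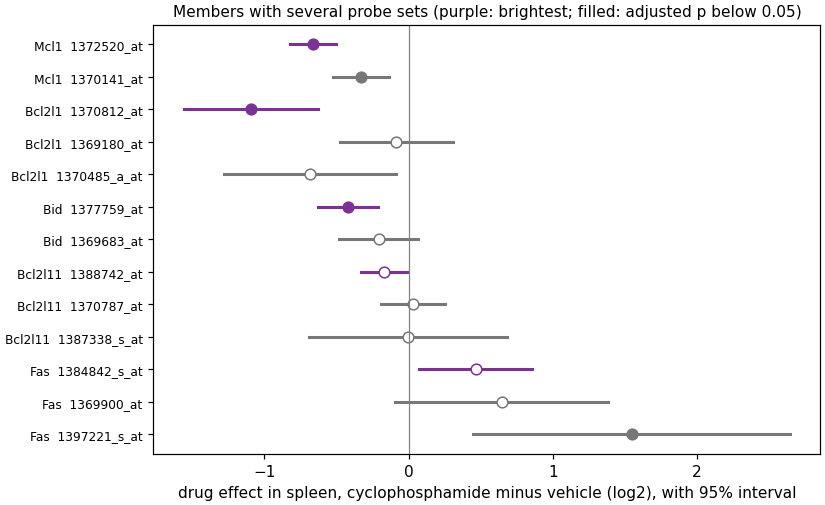
Drug effect in spleen, cyclophosphamide minus vehicle on the log2 scale with 95% intervals, for each probe set of the 5 genes that have several. Purple marks the brightest probe set, which was used, and filled points are called among all probe sets; the 3 probe sets of Bcl2l1 range from -1.09 to -0.08.

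The genes around the 10 were read from 5 lists. In spleen 44 of these genes were tested, of which 11 rose and 9 fell, with a median change of 0.02. These counts, and those of the single lists, stand beside the 26.9% of all genes that rose and the 28.1% that fell. In liver 42 were tested and 0 passed in limma, with 8 at an unadjusted p below 0.05, beside 14.3% of all genes. Of 10 further BCL2 family genes in spleen 2 rose and 3 fell. Bnip3 (0.93 ± 0.14), a mitochondrial protein of hypoxia and mitophagy, and Bcl2l2 (0.55 ± 0.07), which encodes the pro-survival BCL-W, rose. Hrk (-0.97 ± 0.13), a BH3-only gene, Bnip3l (-0.62 ± 0.08), whose protein clears mitochondria from maturing red cells, and Bcl2l12 (-0.50 ± 0.12) fell. Bax has no probe set that names it alone and was not used here.

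Of 15 death receptor genes tested in spleen, 5 rose and 2 fell. The rises were in Tnfsf10 (1.21 ± 0.10), which encodes the ligand TRAIL, in the receptor genes Tnfrsf1a (1.14 ± 0.09), Tnfrsf21 (0.97 ± 0.11) and Tnfrsf1b (0.62 ± 0.09), and in the kinase gene Ripk1 (0.39 ± 0.06). Daxx (-0.49 ± 0.10) and Cflar (-0.42 ± 0.08), which encodes the caspase 8 inhibitor FLIP, fell. The FAS ligand gene Faslg (-0.16 ± 0.16, adjusted p = 0.398), Fadd (near 0 with an SE of 0.11, adjusted p = 0.997) and Casp8 (-0.14 ± 0.09, adjusted p = 0.231) were not called.

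Of 11 apoptosome and caspase genes in spleen, Casp9 rose (0.52 ± 0.07), and Casp2 (-0.43 ± 0.07) and the apoptosome scaffold gene Apaf1 (-0.35 ± 0.10) fell. Of 4 inhibitor of apoptosis genes, Xiap rose (0.36 ± 0.07), and Birc3 (-1.43 ± 0.14) and Birc5 (-1.06 ± 0.21), the mitotic gene of survivin, fell. Of 4 genes of the p53 list tested in spleen, 2 rose, 0 fell and the rest were not called. The cell cycle inhibitor gene Cdkn1a rose by 3.51 ± 0.14 (adjusted p = 7.9e-07 in limma) and Ccng1 by 0.96 ± 0.06 (adjusted p = 2.01e-06). Mdm2, another p53 target, was at 0.10 ± 0.06 (adjusted p = 0.2). In liver Cdkn1a was at 0.44 ± 0.47 (adjusted p = 0.716) and Ccng1 at 0.75 ± 0.16 (adjusted p = 0.0736). The shifts of cell markers in spleen given above apply to these lists too.

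**Figure D5:**
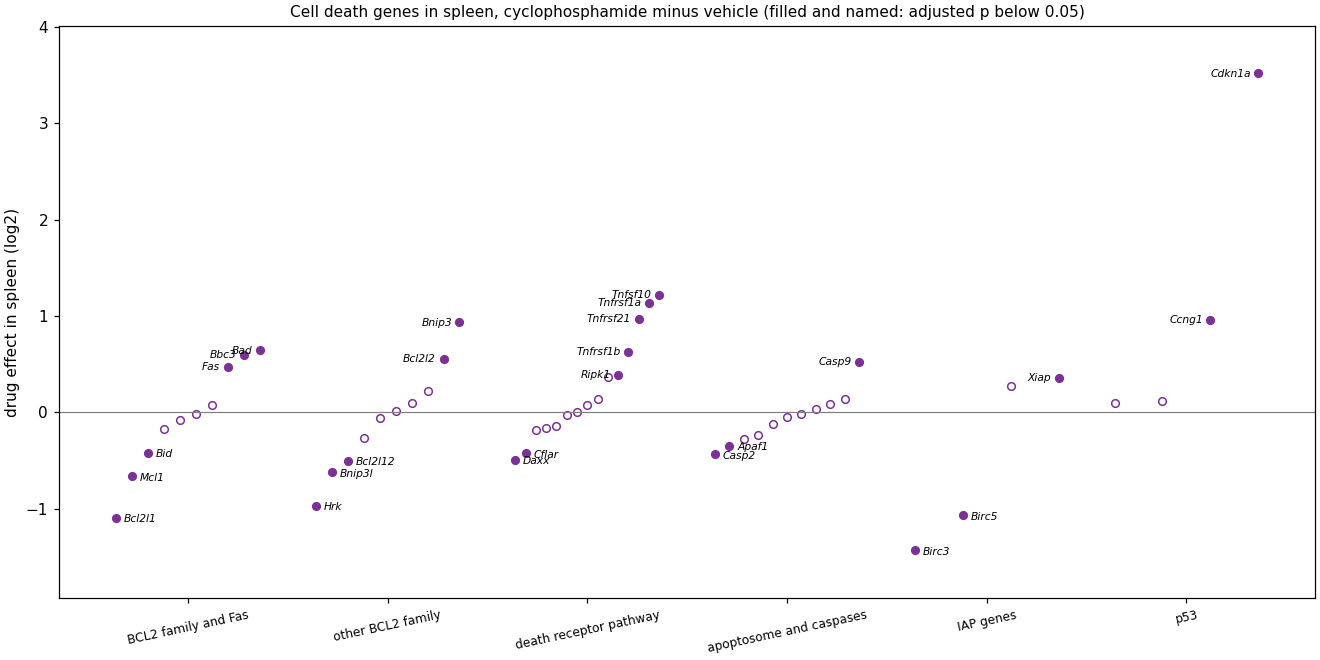
Drug effect in spleen, cyclophosphamide minus vehicle on the log2 scale, for the 10 genes and the 44 tested genes of the 5 lists, with 1 point per gene sorted within its list. Filled points with names are called; Cdkn1a, at 3.51, has the largest change shown, and each BCL2 and death receptor list holds called genes on both sides of 0.

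For the 3 members with the largest called changes in spleen, the genes with the most similar profiles were listed by the root mean square difference of centred log2 values over 12 spleens, searched over 12662 genes. Nearest to Bcl2l1 were Pim1 (0.187), Nrtn (0.189) and Asb1 (0.203). Nearest to Mcl1 were Ddx21 (0.0679), Mbnl1 (0.0735) and Tasor2 (0.0770). Nearest to Bad were Tmem109 (0.101), Dhrs3 (0.116) and Mocs1 (0.118). All 9 genes share the arrays and the drug contrast with the member, so these distances are a description.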

How the data were processed

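Per the labels, 5 µg of total RNA of each organ was labelled for an Affymetrix rat expression array, and rat numbers identify the animal. The authors deposited log10 intensities. That base was inferred: between their extreme 1% at either end the values span 2140-fold if taken as log10 and 10.1-fold if taken as log2. Probe summary and scaling by the authors are not given in the sources used here. After conversion to log2 the values were not scaled further, and blank cells, 77831 of 743520, were left missing. The design had assumed deposited log2 values; the same test was used.

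Of 30980 probe sets 20792 name 1 gene, 436 several and 9752 none. The probe set per gene was chosen by the highest mean of log2(intensity + 16), with blanks at 0. All 10 members have a value and were tested in both organs, where every group needed at least 1 value. R 4.3.3 and limma 3.58.1 (lmFit, contrasts.fit, eBayes) were used with 4 group means per organ, or 8 over both, and with adjusted p below 0.05 over all genes; the fits were tested on simulated data. Gene lists named up to 5 called genes with the largest change, plus defining genes at their values. The members and lists were chosen with earlier results of these data known. Liver and spleen of a rat come from the same animal per the labels; their deviations from group means correlated at -0.0584 to 0.17. Alternatives were offsets of 16 and 64, quantile scaling, median centring, a level filter, 2 values per group, other probe set rules, variance priors, array weights, leaving out each rat, fitting 2 groups alone, a term for the 4 spleens of over 1500 blanks (the labels name no batch) and the rat as a block. Testing each probe set and the 8 spleens with fewer blanks were chosen after seeing the data. The number of arrays limits precision.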

Additional observations from a re-analysis of the deposited data

Results flagged for a closer look

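The drug effect differed between spleen and liver, in a test of that difference over all 24 arrays with limma, for 3 of the 10 genes. This stands beside 33.1% of 12474 genes called in the same test. When each rat was left out in turn, Mcl1 kept the call in 12 of 12 fits, Bbc3 in 9 and Bcl2l1 in 7. The effect in spleen minus that in liver was 0.55 ± 0.17 (SE) for Bbc3, -1.02 ± 0.33 for Bcl2l1 and -0.77 ± 0.12 for Mcl1. In spleen the change of Bbc3 was 0.60 ± 0.09, of Bcl2l1 -1.09 ± 0.21 and of Mcl1 -0.66 ± 0.07, and in liver 0.05 ± 0.15, -0.07 ± 0.25 and 0.11 ± 0.10 for the same genes. Groups of 3 rats are too small for a test of single outlying samples.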

How the results depend on the processing

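Bcl2l1, Mcl1, Bid, Bad and Bbc3 kept their direction and their call for the drug in spleen under 12 alternatives and in all 12 fits that each left out a rat. Among the alternatives, the fit of the 8 spleens with fewer blanks covers only the effect with wood. Other probe set rules could not move the estimates of Bad and Bbc3, which have 1 probe set each. The count of all genes called in liver, 103, was 177 and 212 with offsets of 16 and 64, 197 above the median level, 206 with trend and robust variance, 173 with array weights, and 35 to 114 with a rat left out. All genes called in spleen, 7485, were 4801 above the median level, where fewer genes are tested. Pathway genes called in liver were 1 above the median level, with trend and robust variance and with array weights, and 0 to 1 with a rat left out. Members called for the level in vehicle rats were 4 of the 6 tested above the median level, where Bcl2, Bak1, Bmf and Fas were not tested and no tested member lost its call. Members called for wood in spleen were 2 with the mean of probe sets, 0 with the blank term and 0 to 1 with a rat left out. Members called for the drug in liver were 0 to 1 with a rat left out, and those without wood in spleen 3 with the blank term. Under the alternatives, all genes called were counted only for the drug effect averaged over housings. The member counts for wood, the drug without wood and the organ comparisons therefore have no share of all genes beside them. The values that follow turned their sign, and of them only the level of Bcl2l11 had been called. With an offset of 64 the organ difference of Bcl2 was -0.0226. Bak1 in spleen was 0.0242 under quantile scaling, 0.0157 under median centring and 0.0703 with array weights, and the level of Bcl2l1 was -0.146 under both scalings. With the mean of probe sets, Bcl2l1 and Bid in liver were 0.0269 and 0.0281, the organ differences of Bcl2l11 and Fas were 0.572 and 0.469, and the level of Bcl2l11 was -0.0884. That mean leaves out blank cells, so for Bcl2l11 and Fas the liver arrays differ in the probe sets averaged. Probe set 1387338_s_at of Bcl2l11 had a value in 5 drug livers and 3 vehicle livers, and 1369900_at of Fas in 1 and 0. Bmf in spleen was -0.0695 with the blank term. With a rat left out, spleen values ran from -0.0798 to 0.0627 for Bak1 and from -0.0556 to 0.189 for Bmf. Liver values ran from -0.409 to 0.00784 for Bcl2, from -0.206 to 0.0669 for Bcl2l1, from -0.000698 to 1.21 for Bad and from -0.00643 to 0.15 for Bbc3. The organ difference ran from -0.0331 to 0.321 for Bcl2, from -0.16 to 0.017 for Bcl2l11 and from -0.656 to 0.653 for Bad. With the rat as replicate block (correlation 0.0814), 3 members were called for the organ difference and 8 for the level, as without the block, and no member's call changed. The causes were not tested. Blank and dim cells limit what the liver arrays can show for Bad, Bmf and Bcl2. Bak1 was dim there too, at an intensity of 42.6 to 95.2.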
